A study of Homo sapiens with 9 samples.

Results

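A set of 10 genes that are switched on by the RAS-ERK pathway, most of which act back on it, was followed through all 9 RNA-seq libraries of H1299 cells. The members were 3 phosphatase genes (DUSP4, DUSP5 and DUSP6), 2 Sprouty genes (SPRY2 and SPRY4), 2 SPRED genes (SPRED1 and SPRED2), 2 ETS transcription factor genes (ETV4 and ETV5) and PHLDA1. They were picked by name, as 10 of the 58721 genes in the count tables, and all 10 had enough reads to be among the 16441 genes tested. H1299 is an established human line from a non-small cell lung carcinoma. It carries an activating NRAS mutation, so RAS, the switch at the top of the pathway, is altered in every group.

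The 9 libraries fell into 3 groups of 3. One group was treated with 0.1 mM melatonin, the hormone that the pineal gland releases at night. Another, siCLOCK, received small interfering RNA against CLOCK, a transcription factor of the circadian clock. The control cells were kept in serum-free medium. A non-targeting siRNA, a vehicle for melatonin, a treatment time and a batch are not given in the sources used here. In siCLOCK, the reduction of CLOCK and the act of giving siRNA therefore cannot be told apart. In the melatonin group, the same holds for melatonin and any solvent given with it. The samples of a group are called independent, but nothing says that they were separate cultures, so the p-values reflect the spread between these samples alone, which may be technical.

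In this pathway, growth factor receptors load RAS with GTP, RAS activates the RAF kinases, RAF activates MEK, and MEK activates ERK by phosphorylating it. Active ERK enters the nucleus and induces several of its own brakes among its target genes. Dual-specificity phosphatases remove the activating phosphates from ERK, and Sprouty and SPRED proteins act higher up, between the receptors and RAF. RNA of such genes is widely read as a record of ERK output, but phosphorylated ERK was not measured in these samples. In bulk RNA, fewer cells of a type and less RNA per cell cannot be told apart.

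Depth was similar across groups, but the libraries fell into 2 technical sets. Counts assigned to genes ranged from 15384539 to 19192962 per library. Unmapped reads made up 2.24% to 2.34% of reads in the 3 melatonin libraries and in the library labelled siCLOCK replicate 3, against 1.22% to 1.36% in siCLOCK replicates 1 and 2 and the 3 controls. Processed pseudogenes, copies of other genes without introns, took 0.314% to 0.324% of gene counts in the first 4 of these libraries, against 0.163% to 0.172% in the other 5. CLOCK itself stood at 51.5%, 78.7% and 93.8% of the control mean in siCLOCK replicates 1, 2 and 3, so the library labelled siCLOCK replicate 3 did not show the reduction that its label implies. Its log2 fold change in siCLOCK against control was -0.42 and missed the threshold of 0.05 (edgeR's quasi-likelihood test with Benjamini-Hochberg adjustment, adjusted p = 0.340). With the library labelled siCLOCK replicate 3 left out it was -0.62 and passed (adjusted p = 0.0179), and with siCLOCK replicate 1 left out it was -0.21 (adjusted p = 0.336). Counts of members and the main calls that rest on the library labelled siCLOCK replicate 3 are therefore also given without it.

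Markers of other cells were low in every group. The summed level of 4 leukocyte and erythroid markers was at most 0.0533 CPM (a gene's share of the reads assigned to genes, scaled between libraries) in melatonin, 0.105 CPM in siCLOCK and 0.106 CPM in control libraries, with CD3E and HBB at 0 throughout. For 7 fibroblast and endothelial markers the sum was 4.21 to 5.61 CPM in melatonin, 5.25 to 6.98 CPM in siCLOCK and 5.50 to 5.68 CPM in control, with LUM at 0. For 4 lung epithelial markers it was 0.775 to 0.852 CPM in melatonin, 0.595 to 0.806 CPM in siCLOCK and 0.617 to 1.17 CPM in control, with SCGB1A1 at 0. Of the fibroblast and endothelial markers, the collagen gene COL1A1 was lower in melatonin than in control (-0.96, adjusted p = 0.00437), and PECAM1, a gene of endothelial cells, was lower in melatonin than in siCLOCK (-0.71, adjusted p = 0.0147). Vimentin (VIM), which mesenchymal-like carcinoma lines make in abundance, averaged 1503 CPM in melatonin, 1865 CPM in siCLOCK and 1853 CPM in control. VIM, KRT8 and KRT18 were each lower with melatonin than in control cells. For all these markers and the technical sets, their part in the results on the ERK genes was not tested.

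Promoter windows of 3 genes that changed in melatonin are shown because the genes did not move together, DUSP6 and SPRY4 being higher and PHLDA1 lower. Each window runs from 250 bases before to 50 bases after a RefSeq transcription start on GRCh38.p14 and is printed 5′ to 3′ on the gene's own strand, which is the minus strand in all 3. The DUSP6 window is chr12:89352452-89352751, the SPRY4 window chr5:142324198-142324497 and the PHLDA1 window chr12:76031727-76032026. Capitals mark matches to 1 of the 4 motifs searched.
DUSP6: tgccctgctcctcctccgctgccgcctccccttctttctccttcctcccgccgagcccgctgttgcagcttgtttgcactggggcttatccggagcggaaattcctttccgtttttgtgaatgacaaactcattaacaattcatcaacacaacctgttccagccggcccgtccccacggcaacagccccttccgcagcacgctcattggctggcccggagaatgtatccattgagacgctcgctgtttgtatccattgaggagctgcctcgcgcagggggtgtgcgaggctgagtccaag
SPRY4: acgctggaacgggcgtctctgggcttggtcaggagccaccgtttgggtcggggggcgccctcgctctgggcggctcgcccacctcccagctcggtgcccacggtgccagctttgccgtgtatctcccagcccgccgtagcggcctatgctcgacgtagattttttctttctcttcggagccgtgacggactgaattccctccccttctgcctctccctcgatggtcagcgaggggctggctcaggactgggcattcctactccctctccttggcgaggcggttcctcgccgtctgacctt
PHLDA1: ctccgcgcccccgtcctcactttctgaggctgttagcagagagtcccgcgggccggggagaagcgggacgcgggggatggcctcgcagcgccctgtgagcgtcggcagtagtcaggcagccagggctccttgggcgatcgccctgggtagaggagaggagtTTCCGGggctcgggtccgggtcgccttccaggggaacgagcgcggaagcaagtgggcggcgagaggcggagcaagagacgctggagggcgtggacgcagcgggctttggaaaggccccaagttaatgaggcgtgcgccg
The motifs were the ETS site CCGGAA, the AP-1 site TGANTCA, the CRE TGACGTCA and the E-box CACGTG, which CLOCK and its partner bind. Each was searched on both strands, and no matches overlapped. The shorter ETS core GGAA was not searched, and it occurs in each of the printed windows. Of 35116 RefSeq windows of the same length, 17.2% held the ETS site CCGGAA, 7.71% the AP-1 site, 1.85% the CRE and 7.26% the E-box. PHLDA1 held CCGGAA on the opposite strand, beginning at base -89 from the start, and the DUSP6 and SPRY4 windows held none of the 4 motifs. The search covered 9 RefSeq windows for 6 members. Among the others, 1 of the SPRY2 windows held CCGGAA at base -142. Of the SPRED2 windows, 1 held AP-1 sites at bases -6 and 35, and the SPRED1 window held no match. No window was searched for DUSP4, DUSP5, ETV4 or ETV5. A match of letters in such a window is a description and does not show that a factor binds there.

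The genes differed widely in abundance, and the order at the top depends on how reads shared with an overlapping gene are treated. Such reads are left out of the counts used here. For overlaps with a gene on the other strand, this removes 49.1% to 54.8% of the reads on PHLDA1. It removes 17.6% to 25.2% on DUSP6 and 19.1% to 25.0% on ETV4, and 0 or close to 0 on the others. ETV5 overlaps DGKG on its own strand over 164 exon bases, and reads lost there cannot be counted from the strand columns. Without shared reads, SPRY4 led, with 60.5 ± 1.41 CPM per kilobase (kb) of exon in melatonin, 63.0 ± 3.81 in siCLOCK and 51.9 ± 4.62 in control (SD, n = 3 each). SPRY2 followed, at 43.7 CPM per kb in melatonin, 47.2 in siCLOCK and 40.7 in control, and then PHLDA1, at 31.1 CPM per kb in melatonin, 42.9 in siCLOCK and 40.6 in control. The libraries of this pair overlapped in siCLOCK and in control. With shared reads counted in, PHLDA1 led in each group, with 64.6 ± 0.271 CPM per kb in melatonin, 90.7 ± 5.96 in siCLOCK and 87.2 ± 3.14 in control, and its libraries did not overlap those of SPRY4. The order of PHLDA1, SPRY4 and SPRY2 is thus not settled by these counts.

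Lower in the order, ETV5, SPRED2, DUSP5, ETV4 and DUSP6 lay between 10.6 and 19.6 CPM per kb in control, SPRED1 lay at 5.70, and DUSP4 was last at 0.0737. DUSP6 stood above ETV4 in melatonin, at 15.9 and 7.00 CPM per kb without shared reads and at 19.6 and 8.76 with them, and the libraries of this pair did not overlap either way. In siCLOCK and in control the libraries of the pair overlapped either way. Those of DUSP5 and SPRED2 overlapped in siCLOCK and control as well, and without shared reads DUSP6 overlapped both ETV5 and SPRED2 in melatonin.

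**Figure D1:**
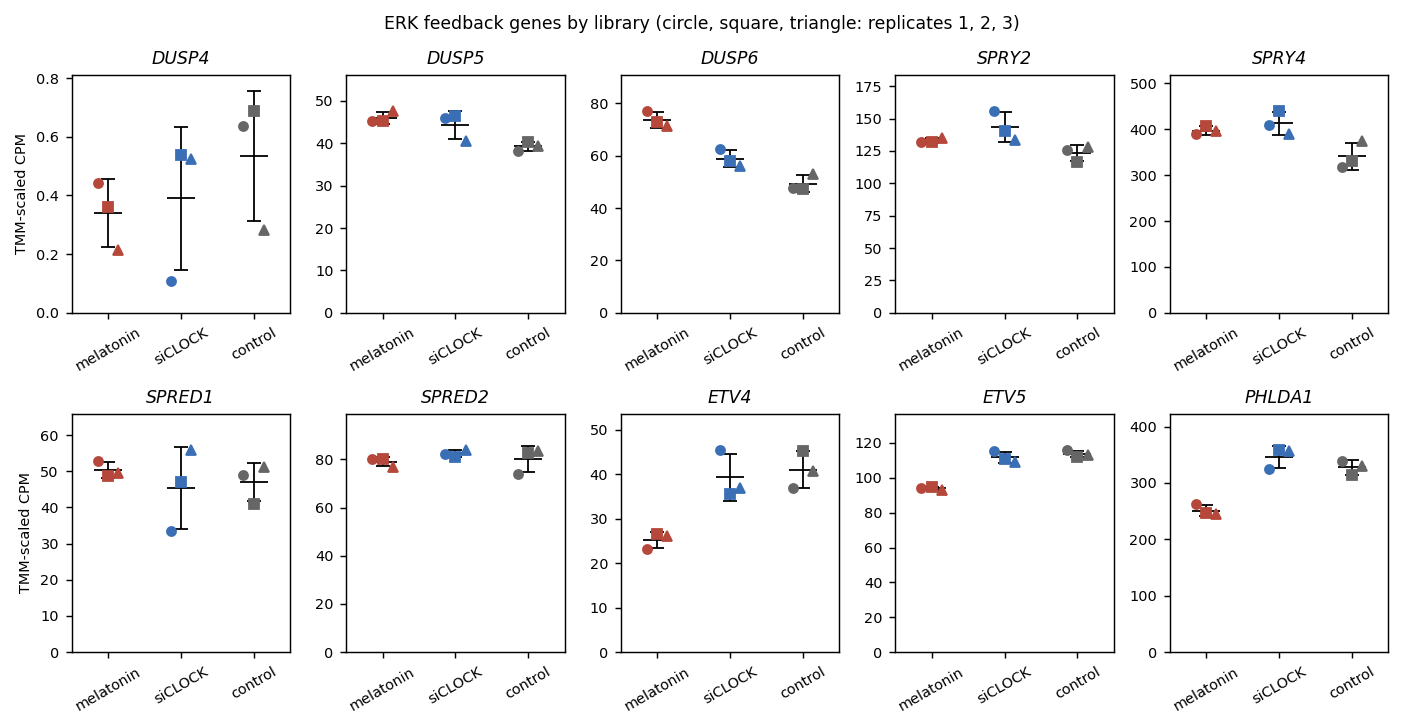
Levels of the 10 genes in CPM, scaled between libraries (vertical axes, 1 panel per gene), in melatonin, siCLOCK and control libraries (horizontal axis). Points are libraries, and bars give the mean and SD of 3. DUSP6 is highest in melatonin, ETV4, ETV5 and PHLDA1 are lowest there, and DUSP4 stays under 1 CPM.

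With melatonin, the 10 genes split. DUSP6, DUSP5 and SPRY4 were higher than in control, ETV4, ETV5 and PHLDA1 were lower, and DUSP4, SPRY2, SPRED1 and SPRED2 did not pass the test. That made 3 members higher and 3 lower, where 11.0% of all genes tested were called higher and 12.1% lower. The median log2 fold change of the members was 0.04, and that of all genes tested was 0.01. Leaving the library labelled siCLOCK replicate 3 out of the fit also gave 3 higher and 3 lower, where 2071 and 2439 of 16706 genes tested were. With siCLOCK against control, 0 of the 10 members passed, where 0.0547% of all genes were called higher and 0.0669% lower by edgeR's quasi-likelihood test. At an unadjusted p under 0.05, 4 of the 10 members were below that line (DUSP5, DUSP6, SPRY2 and SPRY4), against 1355 of the 16441 genes tested. DESeq2 called 1 member higher, SPRY4, where it called 48 of 16441 genes higher. So did edgeR without the library labelled siCLOCK replicate 3, where 60 of 16706 genes were higher. In that fit DUSP5 (0.23), DUSP6 (0.28) and SPRY2 (0.26) did not pass.

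The phosphatases act on ERK itself. DUSP6 (ENSG00000139318.7, chr12:89347232-89353271, minus strand) encodes a cytoplasmic phosphatase that is selective for ERK. Its level was 77.1, 72.7 and 71.2 CPM in the melatonin libraries, 62.6, 57.9 and 56.2 CPM in the siCLOCK libraries and 47.7, 47.3 and 53.0 CPM in the control libraries. No library of one group overlapped another group, with melatonin highest, siCLOCK between and control lowest. Melatonin was 1.49-fold above control, a log2 fold change of 0.58 (SE 0.07, adjusted p = 1.45e-05 by edgeR's quasi-likelihood test with Benjamini-Hochberg adjustment). It was also above siCLOCK, by a log2 fold change of 0.32 (SE 0.07, adjusted p = 0.00416), or 0.29 with the library labelled siCLOCK replicate 3 left out (adjusted p = 0.00788). The siCLOCK value against control was 0.26 (95% interval 0.11 to 0.41, adjusted p = 0.251) and did not pass over all genes. The library labelled siCLOCK replicate 3 stood at 56.2 CPM, lower than both other siCLOCK libraries. It shares the higher unmapped share with melatonin, but it is 1 library, with CLOCK at 93.8% of the control mean. The part of the technical split in the DUSP6 levels was not tested.

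DUSP5 (ENSG00000138166.5, chr10:110497838-110511544, plus strand) encodes the nuclear counterpart, which holds and inactivates ERK in the nucleus. Its level was 45.1, 45.3 and 47.6 CPM in melatonin, 45.9, 46.3 and 40.5 CPM in siCLOCK and 38.1, 40.3 and 39.3 CPM in control libraries. All melatonin and siCLOCK libraries lay above all controls, the library labelled siCLOCK replicate 3 only just. Melatonin was higher than control by a log2 fold change of 0.23 (SE 0.07, adjusted p = 0.0299), a small change that lost its call when any 1 of the 6 libraries compared was left out (adjusted p 0.0601 to 0.138). The siCLOCK value of 0.17 did not pass (95% interval 0.02 to 0.33, adjusted p = 0.529), and melatonin against siCLOCK was 0.06 (95% interval -0.10 to 0.21).

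DUSP4 (ENSG00000120875.8, chromosome 8), another nuclear phosphatase and often the partner of DUSP6 in ERK signatures, was close to silent. It had 7, 7 and 4 reads in the melatonin libraries, 2, 10 and 10 in the siCLOCK libraries and 12, 13 and 5 in the control libraries. The groups overlapped, and the log2 fold change of melatonin against control, -0.68, had a 95% interval of -1.72 to 0.35, so no difference was detectable at this depth. Of 7 other MAP kinase phosphatases on the list, 6 (DUSP1, DUSP2, DUSP7, DUSP8, DUSP10 and DUSP16) were tested. In melatonin against control, where 23.1% of all genes passed in either direction, 0 of these 6 passed in edgeR, with 1 at an unadjusted p under 0.05 (DUSP16, 0.17, adjusted p = 0.0848). In melatonin against siCLOCK DUSP7, a cytoplasmic ERK phosphatase related to DUSP6, was lower, with a log2 fold change of -0.32 (adjusted p = 0.0246), where 17.5% of all genes passed in either direction. With the library labelled siCLOCK replicate 3 left out it was -0.40 (adjusted p = 0.00419). DUSP6 was higher in that comparison.

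Sprouty and SPRED proteins restrain the pathway between receptor and RAF. SPRY4 (ENSG00000187678.9, chr5:142310427-142326455, minus strand) was at 389, 407 and 396 CPM in melatonin, 409.6, 440.2 and 391 CPM in siCLOCK and 317, 330.0 and 375 CPM in control libraries. Every melatonin and siCLOCK library was above every control, of which replicate 3 came nearest. Melatonin against control gave a log2 fold change of 0.22 (SE 0.07, adjusted p = 0.0264). The call was lost when control replicate 1 or 2 or any melatonin library was left out (highest adjusted p 0.139), and held without control replicate 3, at 0.30 (adjusted p = 0.00654). In siCLOCK against control the value was 0.28 (SE 0.07, 95% interval 0.13 to 0.42), but missed the threshold (adjusted p = 0.161). It passed without the library labelled siCLOCK replicate 3, at 0.31, and without control replicate 3, at 0.35 (adjusted p = 0.0417). The direct comparison of melatonin with siCLOCK gave -0.06 (95% interval -0.20 to 0.09), so no difference between the treatments was detected.

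SPRY2 (ENSG00000136158.11, chr13:80335976-80340951, minus strand), the other Sprouty gene, was at 132, 132 and 135 CPM in melatonin, 156, 140.4 and 133 CPM in siCLOCK and 126, 117 and 128 CPM in control libraries. Both treatments lay above control without overlap, yet neither passed. The log2 fold changes were 0.10 in melatonin (95% interval -0.04 to 0.25, adjusted p = 0.291) and 0.21 in siCLOCK (95% interval 0.07 to 0.36, adjusted p = 0.320). Groups without overlap were common, since 4 members were higher in melatonin than in control without overlap, as were 21.9% of all genes tested, and 3 were lower, as were 21.4%. In siCLOCK against control 4 members were higher without overlap, DUSP5, DUSP6, SPRY2 and SPRY4, where 5.75% of all genes were, and 0 were lower, where 5.06% were.

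SPRED2 (ENSG00000198369.9, chr2:65310851-65432637, minus strand), which binds RAS pathway proteins and the RAS inhibitor neurofibromin, was at 80.3, 80.3 and 76.8 CPM in melatonin, 82.4, 81.2 and 83.8 CPM in siCLOCK and 74.1, 82.7 and 83.7 CPM in control libraries. Its groups overlapped in both comparisons with control, and its 95% intervals were -0.16 to 0.12 in melatonin and -0.10 to 0.18 in siCLOCK. SPRED1 (ENSG00000166068.12, chr15:38252326-38357249, plus strand) was at 52.7, 48.6 and 49.4 CPM in melatonin, 33.4, 46.9 and 55.8 CPM in siCLOCK and 49.0, 41.1 and 51.2 CPM in control libraries. It was uneven in siCLOCK, and its largest value there came from the library labelled siCLOCK replicate 3. Without that library, SPRED1 passed in melatonin against siCLOCK, with a log2 fold change of 0.32 (adjusted p = 0.0387), against 0.15 (adjusted p = 0.467) with it.

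**Figure D2:**
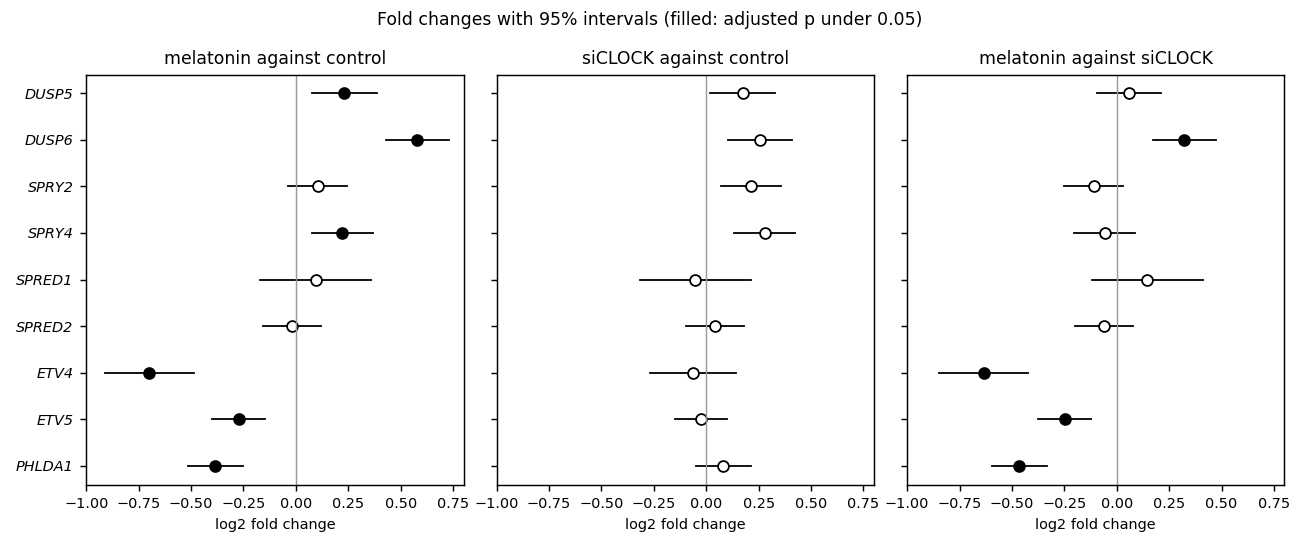
Log2 fold changes of 9 of the genes (points, with 95% intervals as lines) for melatonin against control, siCLOCK against control and melatonin against siCLOCK. DUSP4 is left out because its interval is far wider. DUSP6 is above 0, and ETV4, ETV5 and PHLDA1 are below 0, in both comparisons of melatonin.

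The ETS factors are targets that carry the signal on. ETV4 (ENSG00000175832.12, chr17:43527844-43579620, minus strand) encodes a transcription factor of the PEA3 subfamily, which acts on invasion and growth genes downstream of receptor kinases. Its level was 23.1, 26.5 and 26.1 CPM in melatonin, 45.4, 35.6 and 36.9 CPM in siCLOCK and 37.0, 45.4 and 40.7 CPM in control libraries. All 3 melatonin libraries were below the other 6, which overlapped among themselves. The log2 fold change was -0.70 against control (SE 0.10, 95% interval -0.91 to -0.49, adjusted p = 7.12e-05) and -0.64 against siCLOCK (SE 0.10, adjusted p = 2.83e-04), the largest fall among the members that passed. In siCLOCK against control it was -0.06 (95% interval -0.27 to 0.14). The library labelled siCLOCK replicate 3 stood at 36.9 CPM, with the other siCLOCK libraries. That is 1 library, and the part of the technical split in the ETV4 levels was not tested.

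ETV5 (ENSG00000244405.7, chr3:186046308-186110318, minus strand), the close relative of ETV4, was at 94.2, 94.8 and 93.0 CPM in melatonin, 115, 111 and 109 CPM in siCLOCK and 116, 112 and 113 CPM in control libraries. The melatonin libraries were tightly grouped below all others. The log2 fold change was -0.27 against control (SE 0.06, adjusted p = 0.00278) and -0.25 against siCLOCK (SE 0.06, adjusted p = 0.00746), and -0.02 in siCLOCK against control (95% interval -0.15 to 0.10). ETV1, the third member of the subfamily, did not pass in melatonin against control (-0.06, adjusted p = 0.681). In that comparison 0 of the 4 tested paralogs (SPRY1, SPRED3, ETV1 and PHLDA2) passed in edgeR, with 1 at an unadjusted p under 0.05, PHLDA2, where 23.1% of all genes passed in either direction. PHLDA2 was lower in melatonin than in siCLOCK (-0.34, adjusted p = 0.0258), but not past the threshold without the library labelled siCLOCK replicate 3 (-0.29, adjusted p = 0.0617). The reads that ETV4 shares are with DHX8, which overlaps it on the other strand over 68 exon bases. With them counted, the ETV4 value against control was -0.76 and passed.

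PHLDA1 (ENSG00000139289.13, chr12:76025447-76033932, minus strand), a pleckstrin homology-like protein whose RNA rises with ERK activity and IGF1 signalling, was at 262, 246 and 244 CPM in melatonin, 324, 358 and 356 CPM in siCLOCK and 338, 313 and 331 CPM in control libraries. Again the 3 melatonin libraries were lowest, with no overlap. The log2 fold change was -0.38 against control (SE 0.06, adjusted p = 2.46e-04) and -0.46 against siCLOCK (SE 0.06, adjusted p = 5.70e-05), whereas siCLOCK against control gave 0.08 (95% interval -0.05 to 0.21). The shared reads left out of its count fell on 2 antisense genes that overlap it, AC011611.3 and AC011611.4. With them included, the value against control was -0.43 and passed. For DUSP6 they fell on the overlapping antisense gene AC024909.2, and with them included the value against control was 0.50 and passed. Reads that fell on an antisense gene alone were few, at most 5 per library for AC011611.3 and at most 3 for AC024909.2. Without strand, reads of the gene and of its antisense partner cannot be told apart.

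In melatonin against siCLOCK, 1 member was higher (DUSP6) and 3 were lower (ETV4, ETV5 and PHLDA1), where 7.43% of all genes were called higher and 10.1% lower. Libraries did not overlap for 1 member higher, where 16.8% of all genes were, and for 4 lower, the 3 called and SPRED2, where 17.4% were. The median log2 fold change of the members was -0.09, against 0.00 for all genes tested. Leaving out the library labelled siCLOCK replicate 3 gave 2 higher, with SPRED1 added, and 3 lower, where 1699 and 2159 of 16706 genes tested were. In that fit ETV4 was at -0.68 (adjusted p = 4.86e-05), ETV5 at -0.27 (adjusted p = 0.00428) and PHLDA1 at -0.45 (adjusted p = 3.83e-05). Ratios of raw counts within a library do not depend on scaling between libraries and were picked after the values were seen. Those of DUSP6 or SPRY4 to ETV4 or PHLDA1 set a gene called higher over a gene called lower. Their separation comes from the same counts and adds no further support. The shared reads left out of DUSP6 were 17.6% to 21.1% in melatonin, 17.7% to 24.5% in siCLOCK and 21.6% to 25.2% in control libraries. DUSP6 to ETV4 was 3.33, 2.74 and 2.73 in melatonin, 1.38, 1.63 and 1.52 in siCLOCK and 1.29, 1.04 and 1.30 in control libraries. The DUSP6 to PHLDA1 ratio was 0.294, 0.295 and 0.292 in melatonin, 0.193, 0.162 and 0.158 in siCLOCK and 0.141, 0.151 and 0.160 in control libraries, with an SD of 0.00198 among the melatonin libraries. SPRY4 to SPRY2, a pair of the same family, stood at 2.99 ± 0.0858 in melatonin, 2.90 ± 0.255 in siCLOCK and 2.76 ± 0.211 in control, and its libraries overlapped. ETV5 to ETV4, also a pair of the same family, stood at 3.74 ± 0.290 in melatonin, 2.87 ± 0.303 in siCLOCK and 2.79 ± 0.328 in control. SPRY4 to PHLDA1 stood at 1.59 ± 0.0900 in melatonin, 1.20 ± 0.0877 in siCLOCK and 1.04 ± 0.0986 in control. For both of these ratios the melatonin libraries lay above all others.

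**Figure D3:**
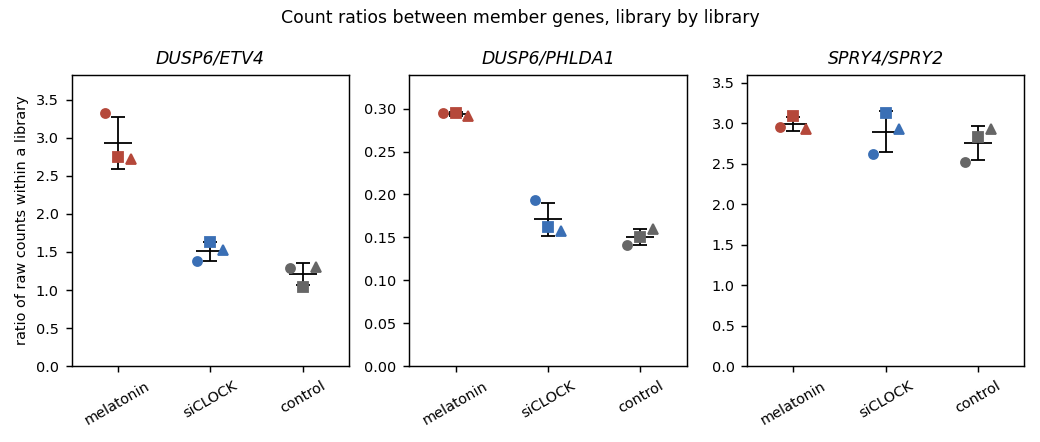
Ratios of raw counts of DUSP6 to ETV4, DUSP6 to PHLDA1 and SPRY4 to SPRY2 in each library (vertical axes), for melatonin, siCLOCK and control. Points are libraries (circle, square and triangle for replicates 1, 2 and 3), and lines give the mean and SD of 3. The first pair of ratios is highest in melatonin, and the third overlaps between groups.

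Counts over the other lists of pathway genes are read against all genes tested, of which 11.0% stood above control and 12.1% below it in melatonin. Among 21 genes of the RAS-RAF-MEK-ERK cascade, 2 were above control and 2 below it. The kinases ARAF (0.29, adjusted p = 0.0182) and BRAF (0.22, adjusted p = 0.0495) were higher, and MAPK3, which encodes ERK1 (-0.42, adjusted p = 0.00278), and HRAS (-0.36, adjusted p = 0.0119) were lower. Of 9 receptor genes tested, MET (0.20, adjusted p = 0.0347) was higher, and AXL (-0.38, adjusted p = 0.00190) and FGFR1 (-0.20, adjusted p = 0.0368) were lower. The list medians were 0.03 for the cascade and 0.07 for the receptors, against 0.01 for all genes. In melatonin against siCLOCK, where 7.43% of all genes were higher and 10.1% lower, 2 cascade genes were higher, the adaptor gene GAB1 (0.49, adjusted p = 0.0158) and ARAF (0.28, adjusted p = 0.0286), and 1 was lower, MAPK3 (-0.39, adjusted p = 0.00611). Among the receptors FGFR3 was higher (0.67, adjusted p = 0.0276) and FGFR1 lower (-0.22, adjusted p = 0.0287). ARAF did not pass with the library labelled siCLOCK replicate 3 left out (0.21, adjusted p = 0.0782), and GAB1, MAPK3, FGFR3 and FGFR1 did. Other cascade genes joined, so that 2 of the 21 were higher and 4 lower in that fit. Of the receptor genes 1 was higher and 1 lower, and of 16706 genes tested 1699 were higher and 2159 lower.

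Of a further 10 genes known to respond to ERK, 1 was above control and 3 below it in melatonin, where 11.0% and 12.1% of all genes were, and the list median was -0.07. HBEGF, an EGF receptor ligand, was higher (0.46, adjusted p = 0.00902). FOSL1, an AP-1 subunit, averaged 241 CPM ± 26.3 in melatonin, 524 CPM ± 104 in siCLOCK and 474 CPM ± 44.1 in control (SD, n = 3 each), a log2 fold change of -0.98 against control (adjusted p = 4.84e-06) and -1.12 against siCLOCK (adjusted p = 2.94e-06). IER3, an early response gene (-0.58, adjusted p = 0.00208), and the transcription factor gene MYC (-0.34, adjusted p = 0.0478) were lower than in control. In siCLOCK against control none of the listed cascade, receptor or ERK-responsive genes passed in edgeR, with 0, 2 and 5 of them at an unadjusted p under 0.05, against 1355 of all 16441 genes. The closest was CCND1, which encodes cyclin D1 (0.26, adjusted p = 0.0990). When the library labelled siCLOCK replicate 3 was left out, 3 of the 10 ERK-responsive genes passed as higher, CCND1 (0.29, adjusted p = 0.0238), PLAUR (0.33, adjusted p = 0.0378) and HBEGF (0.50, adjusted p = 0.0407), against 60 of 16706 genes tested in that fit. Compared with siCLOCK, melatonin had lower CCND1 (-0.28, adjusted p = 0.00290), EPHA2 (-0.23, adjusted p = 0.0272) and MYC (-0.39, adjusted p = 0.0315), and FOSL1, CCND1, EPHA2 and MYC also passed without that library, at -1.24, -0.32, -0.29 and -0.51.

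The technical split bears on the melatonin calls, since no control library shares the higher unmapped share. A term for it, chosen with earlier results known, is estimated only from the library labelled siCLOCK replicate 3 against siCLOCK replicates 1 and 2, and so also takes in any difference in knockdown between them. With it, 2 members were higher in melatonin than in control, DUSP6 (0.68, adjusted p = 0.00170) and DUSP5 (0.42, adjusted p = 0.0471), and 1 lower, PHLDA1 (-0.45, adjusted p = 0.0144). Of all 16441 genes tested, 283 were then called higher and 487 lower, against 1803 and 1987 without the term. SPRY4 (0.34, adjusted p = 0.0891), ETV4 (-0.56, adjusted p = 0.0510) and ETV5 (-0.22, adjusted p = 0.255) lost their calls without changing sign. Against siCLOCK, DUSP6 (0.39, adjusted p = 0.0171), ETV4 (-0.54, adjusted p = 0.0130) and PHLDA1 (-0.51, adjusted p = 4.32e-04) passed with the term, and ETV5 (-0.21, adjusted p = 0.130) did not. Over all genes, 328 were higher and 633 lower there, against 1221 and 1655 without the term. Within the 4 libraries that share the higher unmapped share, melatonin stood apart from the library labelled siCLOCK replicate 3 for DUSP6, DUSP5, ETV4, ETV5 and PHLDA1, but not for SPRY4, with 389 to 407 CPM against 391 CPM. That description rests on 1 library, whose CLOCK level was 93.8% of the control mean. The part of the technical split in the calls was not tested.

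**Figure D4:**
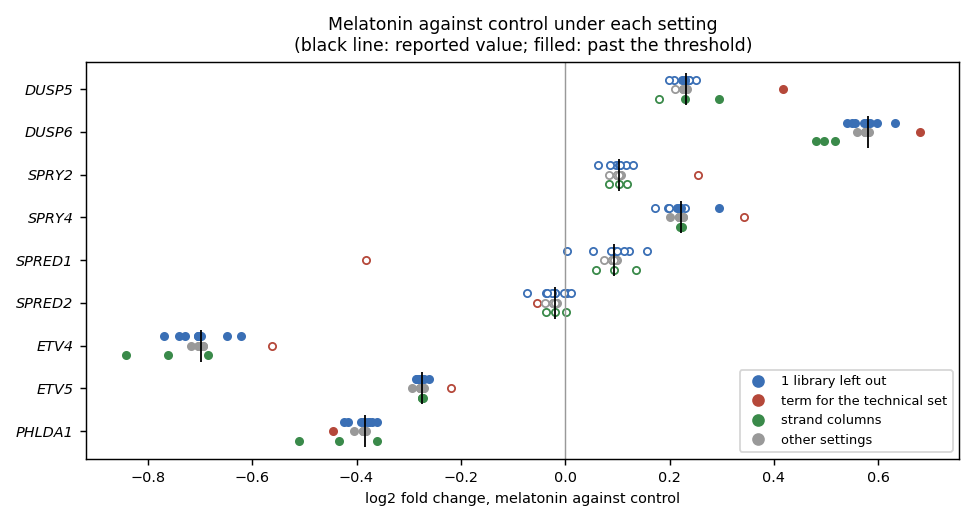
Log2 fold changes of melatonin against control for 9 genes under each alternative setting (horizontal axis). Filled points passed the threshold and open points did not, and the black line marks the reported value (blue, 1 library left out; red, a term for the technical split; green, counts from the strand columns; grey, other settings). DUSP6 and PHLDA1 keep their calls in all 22 alternatives, and DUSP5 in 13.

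Genes with the most similar pattern over the 9 libraries were sought among 10526 protein-coding genes with a mean of at least 5 CPM. Likeness was the root-mean-square difference of centred log2 CPM, so for a given member a smaller value is closer. Values cannot be ranked between members, since a gene that varies little has close neighbours. The range over the libraries in log2 CPM was 0.177 for SPRED2, 0.705 for DUSP6 and 0.970 for ETV4. PLPP3 (0.0404) and MINPP1 (0.0655) were nearest to DUSP6, MCM7 (0.0618) and CDCA8 (0.0737) to ETV4, and HMGXB4 (0.0271) and GNB1 (0.0274) to ETV5. PBX3 (0.0364) and FAM9C (0.0486) were nearest to PHLDA1, BCAR3 (0.0477) and PCYT2 (0.0567) to SPRY4, and LRRC8A (0.0220) and EXTL3 (0.0358) to DUSP5. UBAC2 (0.0410) and NDUFB9 (0.0442) were nearest to SPRY2, INPP4B (0.0516) and DPY19L1 (0.0614) to SPRED1, and PRKCE (0.0309) and PIP4K2C (0.0324) to SPRED2. For DUSP4, whose pattern rests on few reads, the nearest genes lay 0.370 (ALDH1L2) and 0.372 (RAB26) away.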

How the data were processed

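Each of the 9 files held raw read counts per gene, deposited by the authors and made with STAR 2.7.9a on GRCh38, per the submitters' processing notes. The read counts that ignore strand, the second column of each file, were used, since strand totals had a ratio of 1.01 to 1.05. Reads on more than 1 gene were left out of a gene's count by the authors' counting, as the files' line for ambiguous reads shows. Gene identifiers were matched to GENCODE release 29, which was inferred from the identifiers. The 4 summary lines, which name no gene, were left out of library sizes.

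The tests used edgeR 4.0.16 in R 4.3.3. Low counts were removed by filterByExpr, libraries were scaled by TMM, and all 9 entered 1 quasi-likelihood fit with the 3 groups as terms and a common biological coefficient of variation of 0.0682. P-values are two-sided and adjusted by Benjamini-Hochberg over the 16441 genes tested, with a threshold of 0.05. CPM are TMM-scaled and given as mean ± SD over 3 libraries, and 95% intervals are per gene and unadjusted. The procedure was tested on simulated data. The members and lists were chosen with earlier results of these data known. Named were the members, CLOCK, up to 4 genes of each other list with the smallest p, and the 2 genes most like each member. An item of the marker lists is not reported here.

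Alternatives were DESeq2 1.42.0, limma-voom (limma 3.58.1), upper-quartile or RLE scaling, no filter, a minimum of 5 CPM in 3 libraries, a fit of just the 2 groups compared, the replicate number as a block, counts of either strand, each library left out and an adjusted p under 0.01. The term for the technical split, at 1.8% unmapped reads, and the sum of both strand columns were added later.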

Additional observations from a re-analysis of the deposited data

How the results depend on the processing

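Of the members' calls in melatonin against control, those of DUSP6 and PHLDA1 passed in 22 of 22 alternatives, those of ETV4 and ETV5 in 21, that of SPRY4 in 15 and that of DUSP5 in 13. The count of members higher was 1 at an adjusted p under 0.01 and 1 to 3 with 1 library left out, where it was 1 without control replicate 1 or 2 or any of the melatonin replicates. The count lower was 1 with the term for the technical split. In siCLOCK against control 1 member was higher with DESeq2, with no filter, with the technical term, and without control replicate 3 or siCLOCK replicate 3 (range 0 to 1). In melatonin against siCLOCK the count higher ranged from 1 to 2 with 1 library left out. The cause of these changes was not tested. Signs turned only for values that had not passed. In melatonin against control they were SPRED1 (-0.38 with the technical term), SPRED2 (0.00189 with first-strand counts, -0.0737 to 0.0119 with 1 library left out) and CLOCK (0.01001 with second-strand counts, -0.0431 to 0.0614). In siCLOCK against control they were ETV5 (0.0116 with second-strand counts), SPRED1 (-0.23 to 0.13), SPRED2 (-0.0130 to 0.0731) and ETV4 (-0.18 to 0.0155). In melatonin against siCLOCK they were SPRY4 (0.0248) and SPRED1 (-0.15) with the technical term, DUSP4 (0.00153 with limma-voom, -0.66 to 0.0614), DUSP5 (-0.00374 to 0.0904) and SPRED1 (-0.0334 to 0.32). Deviations from group means gave no sign that the replicate numbers pair the samples, though they do not show how the samples were made. Correlations of same-numbered libraries ran from -0.09 to 0.06, and those of differently numbered libraries from -0.12 to 0.13. A replicate block gave 3 members higher and 3 lower in melatonin against control, where 1658 and 1875 of 16441 genes were. It changed no member's call, but called 4 genes higher and 8 lower in siCLOCK against control, against 9 and 11 without it. Over all genes, DESeq2 called 48 higher and 21 lower there, no filter 152 and 59, the technical term 73 and 43, the 5 CPM filter 3 and 2, the 6 libraries alone 3 and 4, first-strand counts 6 and 3, second-strand counts 6 and 7, and an adjusted p under 0.01 2 and 1, with 1 to 69 and 1 to 43 when 1 library was left out. In melatonin against control 1803 were higher and 1987 lower, against 283 and 487 with the technical term, 863 and 1137 at an adjusted p under 0.01, and 1061 to 2213 and 1372 to 2439 with 1 library left out. In melatonin against siCLOCK 1221 were higher and 1655 lower, against 328 and 633, 464 and 873, and 619 to 1699 and 1031 to 2159 in the same settings. The 5 CPM filter, the counts of a single strand and, in the comparisons of melatonin, the 6 libraries alone gave no value for DUSP4, whose low counts limit it.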
